A study of Mus musculus with 4 samples.

Results

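IgM plasma cells are antibody-secreting cells whose transcripts of the mu heavy chain constant gene Ighm outnumber those of the other antibody classes. They were picked from 4 single-cell RNA libraries of mouse gonadal fat by a rule on raw UMIs (unique molecular identifiers, 1 for each transcript molecule caught). A kept barcode had over 1000 and under 7000 detected genes and under 8% mitochondrial UMIs. A plasma cell had at least 10 UMIs of Mzb1, at least 2 of Derl3 and at least 1 of Jchain, with at most 1 of the macrophage gene Csf1r and at most 1 of the stromal gene Pdgfra. An IgM cell had more Ighm UMIs than Igha UMIs and more than the summed UMIs of Ighg1, Ighg2b, Ighg2c and Ighg3. The rule left 1212 IgM cells of 1223 plasma cells and 14982 kept barcodes, beside 5 IgA and 6 IgG plasma cells. Because these genes chose the cells, their levels describe the cells and test nothing.

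The cells came from the stromal vascular fraction, the non-adipocyte cells released from fat by digestion, of 18-month-old mice of genotype p16-CreERT2/R26-LSL-tdTomato. In all 4 groups the mice carried a tamoxifen-dependent Cre under the promoter of p16 (Cdkn2a) and a tdTomato reporter that stays on once Cre has acted, so Tom+ records past Cre activity and not the p16 level at collection. Sorting by flow cytometry for the leukocyte surface protein CD45 and for tdTomato gave 1 library for each group, with the label CD45- or CD45+ and the label Tom+ or Tom-. The number of mice behind each library is not given in the sources used here, and the protocol in the labels names the CD45- Tom- sort again and does not name the CD45+ Tom- sort. No group was replicated, so no test between groups was made, differences have no replicate check, and every 95% interval covers counting error only.

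Plasma cells are the end stage of B cell differentiation. The factors Blimp-1 (Prdm1), Xbp1 and Irf4 switch off the B cell programme and expand the endoplasmic reticulum, where heavy and light chains are folded and, for IgM, joined into polymers with the J chain (Jchain). In mice, much of the circulating natural IgM comes from B-1 cells, a lineage of the body cavities that also makes interleukin 10. B-1a cells that bind phosphatidylcholine are known for a restricted set of receptors, above all the heavy variable gene Ighv11-2 with the kappa gene Igkv14-126, and Ighv12-3 with Igkv4-91. Visceral fat lies next to the peritoneal cavity and holds lymphoid clusters in which such cells are found.

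The variable genes behind most of these cells are shown by the last 90 coding bases of each germline gene, which run into the junction with the D or J segment. They were read from GENCODE transcripts of mouse mm10. Capitals run from the conserved cysteine codon to the end of the gene, the germline part of the antigen-binding loop CDR3. Ighv11-2 lies at chr12:114048241-114048812 on the minus strand (the 90 bases at chr12:114048241-114048330). It is given with Ighv11-1 (chr12:113981879-113981968, minus), its closest relative, since the 3' reads could in principle be split between them.
Ighv11-2: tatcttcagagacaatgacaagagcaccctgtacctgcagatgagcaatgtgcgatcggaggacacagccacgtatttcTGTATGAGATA
Ighv11-1: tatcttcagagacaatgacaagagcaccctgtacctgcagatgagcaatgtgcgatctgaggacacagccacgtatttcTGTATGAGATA
The heavy genes next in use or of B-1 type were Ighv4-1 (chr12:113948282-113948371, minus) and Ighv12-3 (chr12:114366521-114366610, minus).
Ighv4-1: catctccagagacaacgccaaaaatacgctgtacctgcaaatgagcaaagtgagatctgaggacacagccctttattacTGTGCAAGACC
Ighv12-3: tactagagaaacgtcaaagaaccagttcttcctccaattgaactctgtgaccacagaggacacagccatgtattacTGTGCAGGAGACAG
Their kappa partners were Igkv14-126 (chr6:67896553-67896642, plus), Igkv19-93 (chr6:68736297-68736386, minus) and Igkv4-91 (chr6:68768555-68768644, minus).
Igkv14-126: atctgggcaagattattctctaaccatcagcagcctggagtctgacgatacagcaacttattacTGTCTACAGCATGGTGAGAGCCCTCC
Igkv19-93: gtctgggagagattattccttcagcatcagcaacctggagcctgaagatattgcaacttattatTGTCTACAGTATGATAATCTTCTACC
Igkv4-91: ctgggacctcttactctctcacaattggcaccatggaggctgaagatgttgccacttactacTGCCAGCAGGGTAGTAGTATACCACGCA
The lambda gene Iglv1 (chr16:19085017-19085106, minus) is shown because its transcripts appeared in nearly every cell.
Iglv1: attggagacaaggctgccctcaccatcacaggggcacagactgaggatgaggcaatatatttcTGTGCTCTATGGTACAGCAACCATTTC
Over their coding sequence Ighv11-2 and Ighv11-1 were 98.9% identical, with 4 of 353 aligned bases differing. Ighv11-1 nevertheless received 14 UMIs in all 749 IgM cells of the CD45- Tom+ library, against 42465 for Ighv11-2. The nearest relative of Igkv14-126 was Igkv14-111, at 91.5% identity, and that of Ighv4-1 was Ighv5-12, at 75.6%. Iglv1 and Iglv2 were 96.3% identical.

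The libraries held 64083756 to 139397501 UMIs in 3429 to 11255 barcodes, of which 1981 to 4818 were kept. In the order CD45- with Tom+, CD45- with Tom-, CD45+ with Tom+, then CD45+ with Tom-, which all runs of 4 values below follow, there were 749, 37, 362 and 64 IgM cells. They were 18.1%, 0.916%, 18.3% and 1.33% of kept barcodes. The 2 Tom+ libraries thus held most of them, and both CD45 labels held them at about the same share. Stromal cells, by the Pdgfra gate given below, numbered 154, 1855, 94 and 1982 of 4145, 4038, 1981 and 4818 kept barcodes. The libraries labelled CD45+ thus held stromal cells too, and how well the CD45 sort separated cells was not tested. Ptprc, the gene of CD45 itself, was detected in 94.5%, 97.3%, 95.03% and 100% of IgM cells, under both labels. The reporter gene tdTomato stood at 1312, 41.0, 1365 and 59.6 CPM in them. Here and below CPM of a gene outside the immunoglobulin genes means its summed UMIs per 1000000 UMIs outside immunoglobulin genes, because antibody transcripts filled a large and varying share of each cell.

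Barcode sequences recurred between libraries. The CD45- Tom- and CD45+ Tom- libraries shared 4394 barcodes, 39.0% and 39.7% of theirs, of which 12 were kept in both. Of the IgM barcodes, 196, 19, 82 and 22 were also present in another library, which is 26.2%, 51.4%, 22.7% and 34.4%. There they carried a median of 772.5, 1104, 757 and 882 UMIs, against 56616.5, 45979, 60692.5 and 45994.5 in their own library, and only 2, both of the CD45- Tom+ library, were kept there. No barcode was an IgM cell in 2 libraries. Doublet scoring marked 25, 3, 7 and 7 of the IgM cells. Calls that were lost without the barcodes found in several libraries are named below.

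IgM cells made up 99.3% of plasma cells in the CD45- Tom+ library (exact interval 98.5 to 99.8), 97.4% in CD45- Tom- (86.2 to 99.9), 99.2% in CD45+ Tom+ (97.6 to 99.8) and 97.0% in CD45+ Tom- (89.5 to 99.6). The intervals overlapped, but with 38 and 66 plasma cells in the Tom- libraries this does not show that the libraries agreed. The 1 and 2 cells of other classes there were IgG cells marked as doublets. Against B cells, taken as barcodes with at least 2 UMIs each of Ms4a1 and Cd79a none of Derl3 and at most 1 of Csf1r, Pdgfra and the T cell gene Cd3e, a gate chosen after the data were seen, the balance differed. There were 135, 171, 51 and 247 B cells, and IgM cells were 84.7% (82.2 to 87.0), 17.8% (12.8 to 23.7), 87.7% (84.1 to 90.7) and 20.6% (16.2 to 25.5) of IgM and B cells together. The Tom+ libraries lay above the Tom- libraries with no overlap of intervals, whichever the CD45 label.

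In all but 1 member the rule left a wide margin between Ighm and the other classes. The median IgM cell held 5882, 5145, 6116 and 5097.5 UMIs of Ighm, and immunoglobulin genes filled a median of 52.4%, 48.6%, 50.9% and 42.9% of its UMIs. Igha, the alpha chain gene of IgA, had 2626 UMIs over the 749 cells of the CD45- Tom+ library, of which 2492 were in 1 cell that held Ighm at only 1.56 times that number. In every other member Ighm was at least 26.4 times the next class. Outside the rule, 1 of the 2 IgG cells of the CD45- Tom+ library held 7430 UMIs of Ighm against 12923 of the summed Ighg genes. The threshold on Mzb1, a chaperone of IgM assembly, admitted 20, 0, 15 and 0 cells at 10 to 12 UMIs and left out 28, 0, 17 and 2 otherwise eligible barcodes at 7 to 9. The threshold on Derl3, which serves degradation of misfolded proteins, admitted 54, 2, 27 and 3 cells at 2 UMIs and left out 42, 3, 27 and 5 at 1. A larger group was left out for Csf1r, with 210, 11, 106 and 16 barcodes over 1 UMI, or for Pdgfra, with 101, 12, 36 and 14. Barcodes left out for either gene had a median of 5806, 5781.5, 5629 and 6153 detected genes, against 3482, 3489, 3540.5 and 3779.5 in the members.

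Genes that the rule did not use were set beside the plasma cell label, and 3 of the plasma cell list are given. The rule required at least 2 UMIs of Derl3 and the B cell gate none, so the gaps between the groups are not independent of the gates. Xbp1, the factor that drives secretory expansion, stood at 2566, 2336, 2524 and 2065 CPM in IgM cells and at 424, 78.2, 436 and 76.2 CPM in B cells. Sdc1, which encodes the plasma cell surface marker CD138, stood at 256, 214, 242 and 233 CPM, against 42.2, 4.79, 42.8 and 7.99. Tnfrsf17, the receptor BCMA for the survival factor APRIL, stood at 156, 147, 150.1 and 129 CPM, against 22.4, 0, 16.05 and 1.598. In each library the IgM cells were above the B cells for all 3 genes. The B cell genes lay the other way. Pax5, the factor that holds B cell identity, stood at 3.27, 6.02, 2.30 and 5.65 CPM in IgM cells and at 277, 354, 281 and 396 in B cells. Ms4a1 (CD20), part of the B cell gate, remained at 119.6, 145, 109 and 120.5 CPM in IgM cells.

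As examples of the folding machinery, 3 genes are given. Hsp90b1, a chaperone of the endoplasmic reticulum, stood at 3748, 4957, 3715 and 5617 CPM in IgM cells, against 627, 389, 674 and 401 in B cells. Hspa5, the chaperone BiP that holds unassembled heavy chains, stood at 1856, 2119, 1826 and 2369.7 CPM, against 594, 495, 693 and 412. Erp44, which retains unassembled IgM subunits, stood at 283, 274, 292 and 320.0 CPM, against 76.2, 80.6, 96.3 and 93.2. IgM cells were above B cells of the same library for all 3, with the same opposed gates on Derl3.

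For the variable genes, a cell was assigned the heavy gene with the most UMIs where it had at least 3 UMIs and at least 50% of the cell's heavy variable UMIs. This gave a heavy gene to 735, 35, 355 and 62 IgM cells. Ighv11-2 was assigned to 621 of 735 cells (84.5%, exact interval 81.7 to 87.0) in the CD45- Tom+ library and to 26 of 35 (74.3%, 56.7 to 87.5) in CD45- Tom-. In the CD45+ libraries it was assigned to 313 of 355 cells (88.2%, 84.3 to 91.3) with Tom+ and to 42 of 62 (67.7%, 54.7 to 79.1) with Tom-. A single heavy gene thus held most assigned IgM cells of every library, and by these intervals the CD45+ libraries differed beyond counting error while the CD45- libraries did not. Cells of 1 clone share a heavy gene, so these intervals, which treat each cell as independent, do not cover the spread between clones or animals.

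The remaining cells were spread over many genes. There were 35, 5, 16 and 12 different heavy genes, of which 17, 2, 9 and 6 were seen in 1 cell only. Ighv4-1 came second with 41 and 18 cells in the CD45- Tom+ and CD45+ Tom+ libraries and none of the 35 and 62 assigned cells of the Tom- libraries. Ighv1-53 was assigned to 10, 5, 4 and 3 cells. It held a median of 71.9%, 73.3%, 58.5% and 61.9% of their heavy variable UMIs, against 100% for Ighv11-2 in its cells, so these assignments are less firm. Ighv12-3, the other gene of the phosphatidylcholine-binding set, was assigned to 8, 0, 1 and 1. With the 2 genes together, 85.6%, 74.3%, 88.5% and 69.4% of assigned cells carried a B-1 type heavy gene. None of the 11 IgA and IgG cells carried Ighv11-2.

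**Figure D1:**
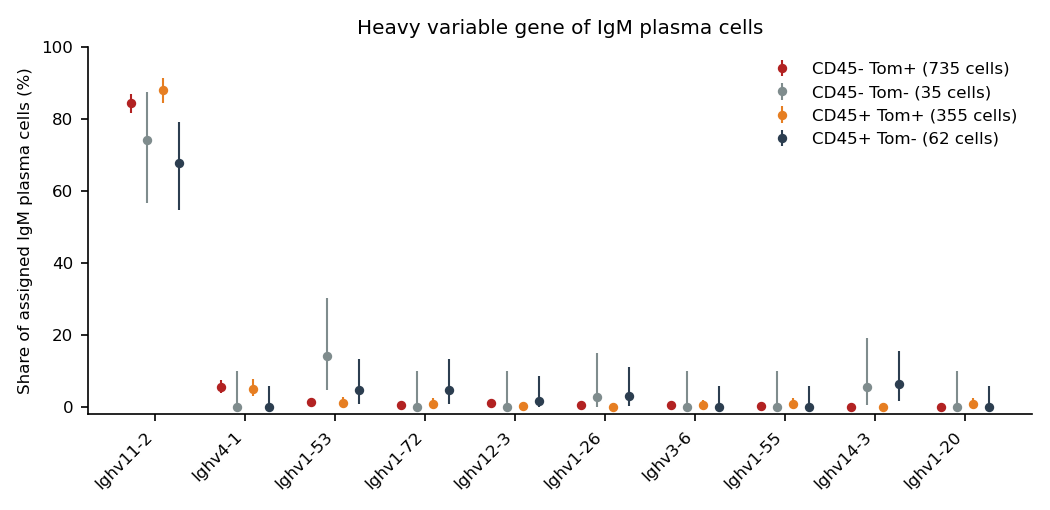
Share of assigned IgM plasma cells with each of the 10 most used heavy variable genes, in percent, for the 4 libraries. Points are shares and bars are exact 95% binomial intervals covering counting error only; Ighv11-2 stands at 67.7% to 88.2% and every other gene lies below the interval of Ighv11-2 in its library.

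Cells with Ighv11-2 held a median of 57, 42, 57 and 58 UMIs of their heavy gene, which was 100% of their heavy variable UMIs at the median. Stromal cells, taken as barcodes with at least 3 UMIs of Pdgfra and at most 1 of Mzb1 and of Csf1r, which should not hold the transcript, had a median of 0 and at most 5, 2, 3 and 4 UMIs. B cells had a median of 1, 0, 1 and 0 UMIs. Of the few B cells that could be assigned a heavy gene, 17 of 17, 0 of 1, 8 of 9 and 1 of 5 had Ighv11-2. Assignment needed only 3 UMIs, and stromal cells reached up to 5, so these assignments are not taken as the receptors of the B cells. The part of free RNA in them was not tested.

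The light chain went with the heavy chain. Of Ighv11-2 cells with an assigned kappa gene, 613 of 619, 25 of 26, 312 of 313 and 40 of 42 carried Igkv14-126, or 99.0%, 96.2%, 99.7% and 95.2%. These are the heavy and kappa genes whose germline ends are printed above. Igkv14-126 had a median of 130, 111, 142 and 119 UMIs in these cells, against 3.5, 0, 3 and 0 in IgM cells with another heavy gene. Ighv4-1 cells carried Igkv19-93 in 30 of 41 and 14 of 18 cells and Igkv14-126 in the other 11 and 4. Ighv12-3 cells of the CD45- Tom+ library carried Igkv4-91 in 7 of 8. Ighv1-53 cells carried Igkv3-2 in 5 of 10, 5 of 5, 3 of 4 and 3 of 3, and Igkv3-5 in a further 5 of 10 in CD45- Tom+.

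Iglv1, the main lambda variable gene, was found in nearly all IgM cells, although kappa transcripts filled them. Its median was 113, 62.5, 123 and 94 UMIs in Ighv11-2 cells and 27.5, 26, 35 and 56.5 in the other assigned IgM cells. The lambda constant gene Iglc1 had a median of 11, 22.5, 12 and 25 UMIs in Ighv11-2 cells, while the kappa constant gene Igkc had 15574, 9953, 14890 and 13234. Lambda constant UMIs exceeded kappa constant UMIs in 0, 0, 0 and 2 Ighv11-2 cells. In stromal cells Iglv1 had a median of 3, 0, 2 and 0 UMIs. The IgA and IgG cells held it too, with 1776 UMIs in 1 of the 2 IgG cells of the CD45- Tom+ library. What these Iglv1 UMIs represent was not tested.

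**Figure D2:**
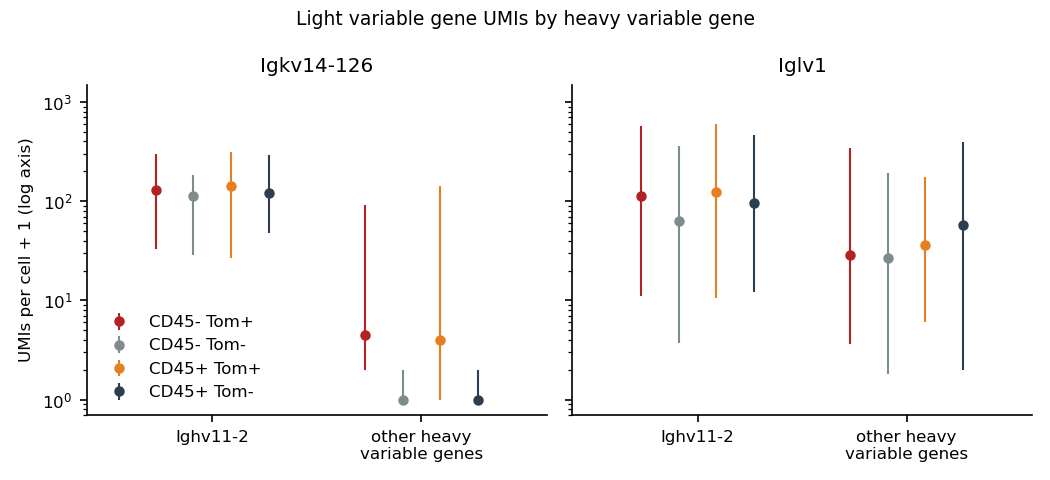
UMIs per cell plus 1, on a log axis, of Igkv14-126 (left) and Iglv1 (right) in IgM plasma cells with Ighv11-2 or another assigned heavy gene. Points are medians over cells and bars run from the 5th to the 95th percentile of cells; Igkv14-126 had medians of 111 to 142 UMIs with Ighv11-2 against 0 to 3.5 without, while the Iglv1 bars overlapped over most of their length.

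Gene levels outside the immunoglobulin loci were compared between Ighv11-2 cells and cells with another heavy gene inside each Tom+ library, a comparison added after the data were seen. A gene counted as higher or lower where it was at least 2-fold different in the same direction in both libraries, with a mean of at least 50 CPM. Of 1987 genes, 1 was higher (0.0503%) and 13 were lower (0.654%) in Ighv11-2 cells. The Tom- libraries, with 26 and 42 Ighv11-2 cells, were not used for the calls, and their values are given where they bear on a gene.

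Basp1, a membrane-associated signalling protein, had the largest difference. It stood at 14.6 CPM in Ighv11-2 cells and 122 in others of the CD45- Tom+ library, and at 14.5 against 173 in CD45+ Tom+, log2 ratios of -3.07 (-3.33 to -2.80) and -3.58 (-3.95 to -3.21). In the Tom- libraries it stood at 1.61 against 144 and 11.0 against 64.4 CPM. All 4 libraries placed it lower in Ighv11-2 cells. Prg2, known as the major basic protein of eosinophil granules, was also lower in all 4, at 81.4 against 265, 41.9 against 336, 100.4 against 282 and 33.1 against 119 CPM. Irf8, a transcription factor of B and myeloid cells, and Dusp4, a phosphatase that turns off MAP kinases, were lower with log2 ratios of -1.16 (-1.38 to -0.94) and -1.73 (-1.99 to -1.47) for Irf8 and -1.497 (-1.72 to -1.27) and -1.80 (-2.09 to -1.51) for Dusp4. In the Tom- libraries Irf8 stood at -1.87 (-2.44 to -1.30) and -0.92 (-1.53 to -0.30), and Dusp4 at -1.63 (-3.61 to 0.42) and -1.51 (-2.06 to -0.95). Cox4i2, a subunit of the terminal enzyme of the respiratory chain, was the 1 gene higher, at 122 against 48.1 and 116 against 39.5 CPM. In CD45+ Tom+, 1 of the 42 cells with another heavy gene held 39.1% of their Irf8 UMIs, and 1 held 21.2% of their Prg2 UMIs. For Cox4i2, 1 such cell held 34.5% in CD45- Tom+ and 22.9% in CD45+ Tom+. These genes were still called with each cell weighing the same. The intervals treat UMIs as independent and do not cover the spread between cells.

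Among the cells with another heavy gene, the Ighv4-1 cells held more Napsa and Lag3 than the rest. Napsa, an aspartic protease, stood at 534 and 1164 CPM in Ighv4-1 cells of the CD45- Tom+ and CD45+ Tom+ libraries, against 58.8 and 60.4 in Ighv11-2 cells and 123 and 147 in the rest. The inhibitory receptor gene Lag3 stood at 128 and 211 CPM there, against 17.6 and 22.1 in Ighv11-2 cells and 72.6 and 50.6 in the rest. In the Tom- libraries, which had no Ighv4-1 cell, the Napsa intervals included 0, at -0.47 (-1.25 to 0.37) and -0.29 (-0.89 to 0.33). Prg2 lay the other way within the non-Ighv11-2 cells, at 174 and 145 CPM in Ighv4-1 cells and 358 and 438 in the rest. Bhlhe40, Wnt10a, Ptpn6 and Laptm5 completed the 10 lower genes with the smallest mean ratios, with log2 ratios between -2.32 and -1.19 in the Tom+ libraries. Of these, Bhlhe40, Wnt10a and Ptpn6 had intervals that included 0 in both Tom- libraries. In CD45+ Tom+, 1 cell held 25.3% of the Napsa UMIs of cells with another heavy gene, and 1 held 23.5% of their Bhlhe40 UMIs. Without barcodes found in several libraries, Bhlhe40, Wnt10a and Laptm5 were no longer called, with mean log2 ratios of -1.61, -1.77 and -1.22. After thinning of each cell to 2000 UMIs, Cox4i2, Lag3, Laptm5 and Wnt10a were not called. With all UMIs as the denominator, fewer genes passed the minimum level (1039 tested), and of the 11 named genes Napsa and Prg2 were still called, while over all alternatives the mean log2 ratio stayed between -3.63 and -3.16 for Basp1 and between -1.72 and -1.55 for Dusp4.

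**Figure D3:**
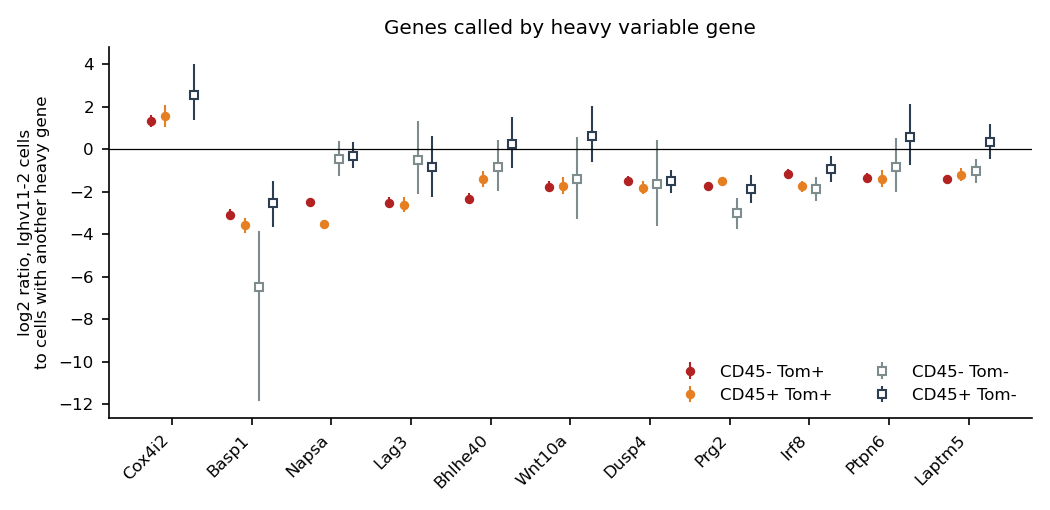
Log2 ratio of each of the 11 named genes between IgM cells with Ighv11-2 and IgM cells with another heavy gene, per library, with exact 95% intervals of the ratio of summed UMIs as bars. Filled circles are the Tom+ libraries used for the calls and open squares the Tom- libraries, which are left out where 1 side had no UMI; Basp1, Prg2 and Irf8 lie below 0 with their intervals in all 4, and the points of Dusp4, Lag3 and Napsa do too.

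Il10, the gene of the regulatory cytokine interleukin 10, was expressed by IgM cells of every library. At least 1 UMI was found in 83.3, 67.6, 80.7 and 57.8% of IgM cells, with a median depth of 20350, 20204, 21619.5 and 21526 UMIs outside immunoglobulin genes. After each cell was thinned to 2000 such UMIs the shares were 37.9, 27.0, 37.6 and 21.9%, so the share depends on depth. Stromal cells, which should lack Il10, had a UMI in 21.4, 3.94, 13.8 and 4.14% at 24225, 24196, 26460 and 25722 UMIs, and 3.25, 0.539, 1.06 and 0.303% after thinning. B cells had one in 28.1, 2.92, 13.7 and 4.45% at 6578, 5547, 5962 and 5913 UMIs, and 8.89, 1.76, 7.84 and 0% after thinning, where the last value, a count of 0, allows up to 1.48%. IgM cells lay above the stromal share, the level free RNA can give, in each library. B cells, which were shallower, did not exceed the upper bound of the stromal interval in any library before thinning (28.8, 4.92, 22.5 and 5.11%), but after thinning they exceeded it in 3 of 4 (7.41, 0.991, 5.79 and 0.658%). The summed level was 367, 254, 341 and 198 CPM in IgM cells and 199, 3.99, 104 and 6.92 CPM in B cells. The B cell levels of the Tom+ libraries rested on 38 of 135 and 7 of 51 cells, with up to 83 and 23 UMIs in 1 cell. The Il10 share of IgM cells before thinning had intervals that did not overlap between the CD45+ libraries (76.2 to 84.6 with Tom+ and 44.8 to 70.1 with Tom-), but they overlapped after thinning (32.6 to 42.8 and 12.5 to 34.0). Between the CD45- libraries the intervals overlapped before thinning (80.4 to 85.9 and 50.2 to 82.0).

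The other genes tied to the B-1 lineage were mixed. Spn (CD43), a surface protein of B-1 and plasma cells, stood at 88.4, 88.0, 84.9 and 79.7 CPM in IgM cells and 38.9, 19.1, 48.1 and 22.4 in B cells. Arid3a, a factor that raises heavy chain transcription, stood at 84.3, 68.7, 89.7 and 109.8 CPM, against 23.2, 27.1, 37.4 and 28.8. Both were above B cells in every library. Cd5, the surface marker that defines B-1a cells, was nearly absent, at no more than 2.41 CPM in any library, and Zbtb32, a repressor expressed in B-1 cells, stood at 0.864, 3.61, 0.968 and 1.25 CPM, below B cells. Bhlhe41, a factor needed by B-1a cells, stood at 54.5, 34.9, 57.0 and 54.6 CPM, against 50.5, 54.2, 34.8 and 37.8 in B cells, below B cells in the CD45- Tom- library and above them in the other 3.

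Among the survival and homing receptors, Tnfrsf13b (TACI), a second receptor for APRIL and BAFF, stood at 229.8, 234, 248 and 204 CPM, against 116, 115, 131 and 113 in B cells. Cd28, a costimulatory receptor that long-lived plasma cells use, stood at 37.4, 28.9, 43.5 and 30.1 CPM, against 11.6, 1.595, 5.35 and 6.92. Both were higher than in B cells of the same library. S1pr1, the receptor for the exit signal of lymphoid organs, stood at 6.92, 7.23, 5.81 and 10.0 CPM, against 200.3, 179, 249 and 180.0. The follicle and lymph node receptors Cxcr5 and Ccr7 were below 5 CPM in every library. Itga4, the alpha chain of the integrin VLA-4, remained at 199, 231, 213 and 267 CPM. The checkpoint ligand gene Cd274 (PD-L1) stood at 159, 148, 183 and 88.5 CPM, against 104, 62.2, 142 and 57.5 in B cells.

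**Figure D4:**
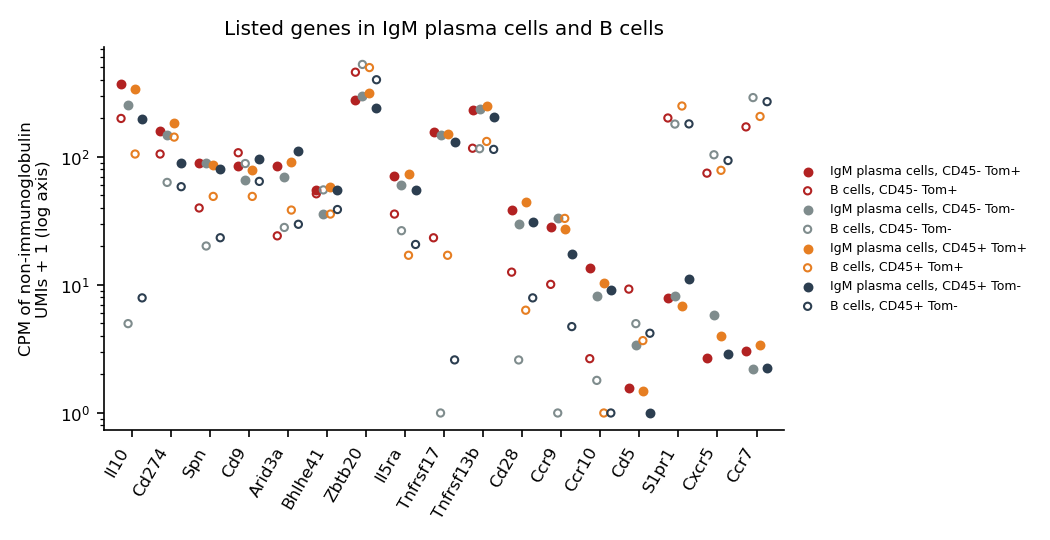
Levels of 17 listed genes in IgM plasma cells (filled) and B cells (open) of each library, as CPM of UMIs outside immunoglobulin genes plus 1, on a log axis. Il10, Arid3a, Tnfrsf17 and Cd28 lie higher in IgM cells, and S1pr1, Cxcr5 and Ccr7 lie higher in B cells, in each library.

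Dividing cells were counted as those with UMIs of at least 4 of 6 cell cycle genes. They were 9.35% (7.36 to 11.7), 13.5% (4.54 to 28.8), 6.08% (3.85 to 9.06), 15.6% (7.76 to 26.9) of IgM cells. The same count gave 0.741% (0.0188 to 4.06), 0% (0 to 2.13), 0% (0 to 6.98), 0.405% (0.0102 to 2.23) of B cells. This count was not thinned, and B cells were shallower, so the gap depends in part on depth. After thinning to 2000 UMIs, Mki67 was found in 14.3, 16.2, 14.6 and 23.4% of IgM cells and 5.19, 1.76, 1.96 and 1.21% of B cells. Top2a was found in 6.28, 8.11, 7.46 and 14.1%, against 2.96, 2.35, 5.88 and 3.64%. The thinned intervals of Top2a overlapped in each library and those of Mki67 did not. The IgM intervals overlapped between libraries, and no test of the difference was made with 1 library per group. Mki67, a gene of dividing cells, stood at 173, 260.3, 207 and 305 CPM in IgM cells. Cdkn2a, the p16 gene whose promoter drives the Cre, was at 8.03, 16.9, 9.20 and 14.4 CPM, and stromal cells stood at 10.2, 8.20, 13.4 and 10.3. A UMI was found in 13.1, 21.6, 14.1 and 21.9% of IgM cells, with overlapping intervals between the Tom labels. After thinning the shares were 1.20, 0, 1.66 and 1.56%, so no direction between Tom labels is drawn.

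IgM cells were set against IgA and IgG cells inside the 2 Tom+ libraries, which held 3 and 2 IgA cells and 2 and 1 IgG cells. These few cells are the limit of the comparison. In CD45- Tom+, 1 of the 2 IgG cells also held 7430 UMIs of Ighm, above the IgM median of 5882. Of 1561 genes compared with IgA, 53 were higher (3.4%) and 37 lower (2.37%) in IgM cells by the 2-fold rule, and 22 of the 90 had an interval that left out 0 in both libraries. Of 1594 compared with IgG, 44 were higher (2.76%) and 74 lower (4.64%), and 41 of the 118 had such intervals. These intervals treat the UMIs of 1 cell as independent and do not cover the spread between cells.

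Zcwpw1, a reader of histone methylation best known from meiosis, had the largest mean ratio over IgA, which rested on 1 UMI in the IgA cells of each library. It stood at 458, 516, 476 and 315 CPM in IgM cells and at 0, 147, 0, 0 and 239 CPM in the 5 IgA cells, with log2 ratios of 4.37 (1.89 to 9.67) and 3.07 (0.59 to 8.37) in the Tom+ libraries. In the 6 IgG cells it stood at 103, 55.6, 0, 0, 0 and 0 CPM. Most cells of other classes therefore had none, while the median IgM cell of every library had some. B cells held Zcwpw1 too, at 357, 199, 206 and 153 CPM. Ctla4, an inhibitory receptor best known from T cells, stood at 490.4, 217, 484 and 377 CPM in IgM cells and at 0, 441, 48.5, 74.5 and 0 CPM in the IgA cells, with log2 ratios of 2.47 (1.11 to 4.34) and 3.09 (0.61 to 8.40). Ccnd2, a D-type cyclin, had log2 ratios of 2.70 (1.48 to 4.33) and 2.73 (0.87 to 5.77). Cybb, a subunit of the phagocyte oxidase, Tmsb10, Ostc, D10Wsu102e, Zfp36l2, Mlec and Srp19 were the other genes with the largest ratios, and the lower interval bound of Ostc and D10Wsu102e alone among these stayed above 0 in both libraries.

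Basp1, low in Ighv11-2 cells as above, also had the lowest mean ratio to IgA cells, at -4.50 (-5.01 to -3.93) and -1.84 (-3.70 to 1.22), with an interval that included 0 in the CD45+ Tom+ library. Btg1, an antiproliferative gene, was lower at -1.64 (-2.39 to -0.77) and -3.81 (-4.49 to -3.05), and Mxd1, a partner of Max that opposes Myc, at -2.18 (-3.03 to -1.17) and -2.20 (-3.43 to -0.57). Haus3, Glipr1 and Tmem205 also had intervals below 0 in both libraries, while those of Vpreb3, Ccdc88a, Pcyt1a and Adgrl2 reached 0 in at least 1. In CD45+ Tom+, however, 1 of the 2 IgA cells held all IgA UMIs of Btg1, Mxd1, Haus3 and Glipr1. For Glipr1, 1 cell also held 90% of the IgA UMIs in CD45- Tom+. Both IgA cells of CD45+ Tom+ carried Ighv14-3 and Igkv12-98. Among the lists, the genes of IgM assembly and secretion had 0 of 13 tested members called against IgA, the unfolded protein response 1 of 17 (Atf6, higher) and MHC class II 2 of 4 (H2-Eb1 and Cd74, higher). The B-1 list had 0 of 4 tested members called, the plasma cell identity list 1 of 12 (Fkbp11, higher) and the survival receptors 1 of 5 (Bcl2, lower). Median log2 ratios of all tested genes were 0.22 and -0.03. Against IgG, MHC class II had 0 of 4 called, with medians of 0.95 and -0.999 in opposite directions, the unfolded protein response 0 of 17, assembly and secretion 1 of 13 (Jchain, higher), plasma cell identity 1 of 12 (Fkbp11, higher), the B-1 list 1 of 4 (Il10, higher) and the survival receptors 1 of 5 (Il6ra, lower). Without barcodes found in several libraries, Btg1, Glipr1, Pcyt1a, Srp19, Tmsb10 and Zfp36l2 were no longer called against IgA, and the mean log2 ratio of Glipr1 was -0.78, with an interval that included 0.

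Against IgG, Jchain, the J chain gene that the plasma cell rule also required, was higher in IgM cells at 2.68 (2.53 to 2.83) and 1.41 (1.24 to 1.59) in the Tom+ libraries, but differed little in the Tom- libraries, at 0.37 (0.23 to 0.50) in CD45- and 0.08 (0.01 to 0.15) in CD45+. Actg1, a cytoplasmic actin, had log2 ratios of 2.70 (1.15 to 4.98) and 2.37 (-0.11 to 7.67). Egr1 and Cd69, genes of acute activation, were at 0 in the single IgG cell of the CD45+ Tom+ library, where a floor of 3 UMIs gives log2 ratios of at least 2.34 and 1.504, and had log2 ratios of 2.01 and 2.69 in the other. The Tom- libraries were mixed. Egr1 lay the other way in CD45- Tom-, at 670 CPM in IgM cells against 2427 in the IgG cell, with a log2 ratio of -1.86 (-2.36 to -1.31), and stood at 2.85 (1.80 to 4.16) in CD45+ Tom-. Cd69 had a log2 ratio of 0.60 (-0.13 to 1.45) in CD45+ Tom-. The 5 genes with the lowest mean ratios, Dyrk3, Nfrkb, Ttc7, Tmem192 and Lztr1, rested on 3 IgG cells, and of them Tmem192 alone had intervals below 0 in both libraries. Il10 was called higher than in IgG cells, where the 6 cells stood at 103, 83.4, 0, 148, 0 and 0 CPM, but was not called against IgA cells, which stood at 0, 441, 0, 224 and 239 CPM.

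Slpi, a secreted inhibitor of leukocyte proteases, was singled out after its values were seen. Of IgM cells, 62 of 749, 2 of 37, 30 of 362 and 6 of 64 held at least 10000 CPM of it, which is 8.28%, 5.41%, 8.29% and 9.38%. The IgM medians were 236, 102, 209.5 and 51.6 CPM. The IgA cells stood at 567, 294, 132100, 1565 and 0 CPM and the IgG cells at 513, 334, 98851, 153146, 197707 and 14636 CPM. Thus 4 of 6 IgG cells and 1 of 5 IgA cells passed that level. The 3 IgG cells of the Tom- libraries, which had 98851, 197707 and 14636 CPM, were all marked as doublets by score, and the 3 of the Tom+ libraries were not. The part of doublets in these values was not tested.

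**Figure D5:**
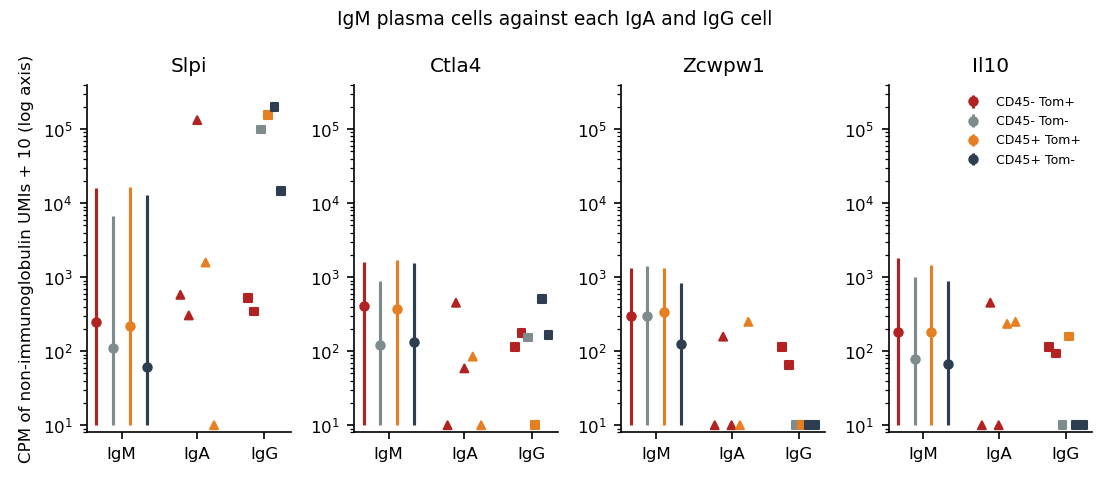
CPM plus 10, on a log axis, of 4 genes in IgM plasma cells and in each IgA (triangle) and IgG (square) cell, coloured by library. IgM points are medians over cells with bars from the 5th to the 95th percentile; 4 of the 6 IgG cells exceed 10000 CPM of Slpi, and Zcwpw1 is at 0 in 7 of the 11 IgA and IgG cells.

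IgM cells of Tom+ and Tom- libraries were then compared within each CD45 label. Of 2037 genes, 3 were higher (0.147%) and 4 lower (0.196%) in both pairs, and the median log2 ratio of all genes was -0.03 and -0.07. The plasma cell, assembly, unfolded protein response, B-1, survival and homing lists had no member called in either direction. Atf3, a factor of the stress response and one of 10 tested members of the dissociation list, was higher, at 392, 139, 478 and 185 CPM, with log2 ratios of 1.499 (1.23 to 1.78) and 1.37 (1.20 to 1.54). Gadd45g, a growth arrest gene, was higher at 1.07 (0.70 to 1.47) and 1.15 (0.87 to 1.45). Gadd45g was not called among Ighv11-2 cells alone or with all UMIs as the denominator, and Atf3 was not called after thinning to 2000 UMIs. Top2a and Pclaf, genes of DNA replication, were lower, at 57.5, 125, 67.1 and 176 and 36.9, 94.0, 23.7 and 94.7 CPM. Neither was called without marked doublets, without barcodes found in several libraries, or without the 5% of cells with the highest share of mast, stromal and macrophage markers.

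For Cma1 and Gsn, markers of other cell types are given beside the values. Cma1, a chymase of mast cells, stood at 136, 7.23, 111 and 5.02 CPM in IgM cells. The summed level of the 6 mast cell markers over all kept barcodes was 4258, 505, 4514 and 427 CPM and that in IgM cells was 335, 44.6, 274 and 24.5 CPM, and 73.5% and 78.7% of it in the Tom+ libraries was held by the 5% of IgM cells with most. Cma1 was not called without marked doublets or without the 5% of cells with the highest share of mast, stromal and macrophage markers. Fcer1a was at 0 in the IgM cells of CD45+ Tom-. Gsn, which encodes the actin-severing protein gelsolin and is abundant in stroma, stood at 29.1, 91.6, 18.9 and 146 CPM, and the 7 stromal markers summed to 6892, 27531, 6917 and 26436 CPM in all kept barcodes and 287, 353, 123 and 1039.6 in IgM cells, with all 7 detected in every library. Gsn was still called without marked doublets and without the 5% of cells with the highest share of these markers. H2-Aa, an MHC class II chain, stood at 114, 875, 119 and 245 CPM, and 1 cell held 43.5% of its UMIs in the CD45- Tom- library. Its mean log2 ratio turned from negative to 0.16 (-0.24 to 0.58) when barcodes found in several libraries were left out.

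Between IgM cells of the CD45- and CD45+ labels, a comparison added after the data were seen, the same rule called 0 of 1971 genes in either direction (0%).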

How the data were processed

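Single-cell 3' RNA libraries of 4 sorted fractions, 1 per group, were analysed from the deposited counts, which are UMIs per gene and barcode that the authors made with Cell Ranger 3.0.2 against mm10 with an added tdTomato row. Gene positions and sequences came from GENCODE vM21, which matched 31011 of 31054 features. The members, gene lists and comparisons were chosen with earlier results of these data known. UMIs were summed over cells within a library, and non-immunoglobulin genes were given per 1000000 UMIs outside the 392 immunoglobulin genes. Ratios carry exact conditional Poisson intervals and shares Clopper-Pearson intervals, both at 95%. A gene was called where it was at least 2-fold different in the same direction in both matched library pairs with a mean of at least 50 CPM. A group of cells at 0 UMIs entered at a floor of 3 UMIs. Named genes were those of the lists, the 10 with the largest and smallest mean ratios against IgA and the 5 of each against IgG and between Tom labels. For Ighv11-2 the 10 lowest were named, chosen after their values were seen, as were Slpi and the B cell and stromal gates. Doublets were scored with scanpy 1.11.5, and the highest scores, 0.8% per 1000 barcodes, were marked but kept. Ratio code was tested on simulated data. Other software was Python 3.11.15, numpy 2.4.6, scipy 1.17.1, pandas 2.3.3 and matplotlib 3.10.9. A listed homing gene is not reported here.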

Additional observations from a re-analysis of the deposited data

Results flagged for a closer look

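Barcodes that met the IgM plasma cell rule but lay outside the barcode filter formed a signal in data not used above. There were 90, 6, 52 and 5 of them in the libraries CD45- with Tom+, CD45- with Tom-, CD45+ with Tom+, then CD45+ with Tom-. Of these, 85, 4, 50 and 4 had at least 8% mitochondrial UMIs.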

How the results depend on the processing

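No paired analysis was possible because each group had 1 library and so no replicate numbers to pair. The Tom labels were compared within each CD45 label. Of the main shares and counts, 151 values under the alternatives stayed within their limits and 57 moved. The IgM share of plasma cells was 100% in both Tom- libraries without marked doublets and without barcodes found in several libraries. The B-1 type share in CD45- Tom+ was 89.1% with at least 80% of UMIs in the leading gene. The Il10 share was 79.2% in CD45- Tom+ with the looser gate, and 37.9%, 27.0%, 37.6% and 21.9% in the 4 libraries after thinning. Against IgA, genes higher were 81 with each cell weighing the same and 12 after thinning, and genes lower were 78 (stricter gate), 96 (without shared barcodes), 9 (all UMIs), 56 (centred), 148 (thinned), 239 (no minimum level) and 156 (20 CPM). Against IgG, genes higher were 99 (all UMIs), 68 (centred), 29 (cells weighing the same) and 17 (thinned), and genes lower were 147 (leading isotype at least 3 times), 156 (without shared barcodes), 5 (all UMIs), 47 (centred), 269 (no minimum) and 206 (20 CPM). For Ighv11-2, genes higher were 2 (looser gate), 5 (without shared barcodes), 0 (all UMIs), 2 (centred), 5 (cells weighing the same), 3 (thinned), 93 (no minimum) and 3 (20 CPM), and genes lower were 4 (all UMIs) and 288 (no minimum). For Tom+, genes higher were 5 (looser gate), 6 (without shared barcodes), 1 (all UMIs), 5 (centred), 6 (cells weighing the same), 8 (thinned), 76 (no minimum) and 10 (20 CPM), and genes lower were 9 (at least 500 genes and under 20% mitochondrial UMIs), 1 (without doublets), 2 (without shared barcodes), 7 (all UMIs), 2 (cells weighing the same), 10 (thinned), 484 (no minimum) and 15 (20 CPM). Between CD45 labels, no minimum level gave 43 higher and 7 lower. H2-Aa between Tom labels reversed to a mean log2 ratio of 0.16 without shared barcodes. The causes were not tested. The 5 IgA and 6 IgG cells, and the 37 and 64 IgM cells of the Tom- libraries, limit precision.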
